A study of Arabidopsis thaliana with 6 samples.

Results

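The purple acid phosphatases (PAPs), the PS2-type phosphatases and the T2 ribonucleases of Arabidopsis thaliana were followed in seedlings labelled vih1vih2 and in wild type. The genes were taken by identifier: PAP1 to PAP29, PS2, PEPC1 and RNS1 to RNS3, 34 in all. Of these, 32 had a row among the 26800 identifiers used, and PAP6 (AT1G56360) and PAP19 (AT3G46120) were not analysed here. All 6 libraries came from intact seedlings harvested at 12 days, from 1/2 MS plates with 1% sucrose and 1% agar kept at 22 °C under 100 µmol m-2 s-1 light. Of these, 3 are labelled vih1vih2, a double mutant of the kinase genes VIH1 and VIH2, and 3 are wild type of the Col-0 accession. The alleles and the number of plants per library were not stated in the labels. The labels do not tell whether the replicates are separate cultures. The p-values below therefore reflect only how far these libraries scatter, and that scatter may be technical.

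Purple acid phosphatases are metalloenzymes that release inorganic phosphate (Pi) from organic esters, and plants carry them in the vacuole, in the cell wall and in the fluid around the root. Plants short of Pi make more of some of them, together with ribonucleases that open RNA to recycling and with phosphatases that act on small metabolites. The transcription factor PHR1 activates many such genes through a short DNA motif, and SPX proteins that bind inositol pyrophosphates hold PHR1 back. VIH1 and VIH2 make the inositol pyrophosphate InsP8, which the series title presents as a signal of Pi inside the cell.

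Total counts were 47894376 to 52902600 in the libraries labelled vih1vih2 and 42697387 to 64410871 in wild type, and 1 count was worth 0.0165 to 0.0245 CPM, the usual scaled read count, here over library sizes corrected by TMM. Both targeted genes were higher, not lower, under the mutant label, so every direction below rests on labels that they did not bear out: VIH1 was at a log2 fold change of 2.31 ± 0.16 (SE) and VIH2 at 3.64 ± 0.14. A gene's total count cannot tell an interrupted transcript from a whole one. Both root and leaf markers were present, as a whole seedling should have. The 5 green leaf markers summed to 9475 to 9703 CPM in the libraries labelled vih1vih2 and 20757 to 21626 CPM in wild type, and all 5 were lower. The 8 root markers summed to 72.4 to 80.2 CPM and 110 to 118 CPM, with 1 higher and 4 lower; the higher one was WOX5. The 4 flower markers with a row summed to 1.14 to 1.76 CPM in the libraries labelled vih1vih2 and 5.51 to 6.76 CPM in wild type. Only SEP3 of them was called, lower (−3.49 ± 0.15), while PI was at −0.02 ± 0.37 and AP1 had 0 counts in all wild-type libraries. The 3 seed markers summed to 1.35 to 1.95 CPM and, in wild type, 0.794 to 1.44 CPM. The part of these shifts in the results below was not tested, and in whole seedlings fewer cells of a type cannot be told apart from less RNA per cell.

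Most of the genes that could be tested rose in the mutant-labelled seedlings. Of the 32 genes with a row, 28 passed the filter on low counts. Among them 18 rose, against 21.4% of all 22818 genes tested, and 2 fell, against 19.4%. In either direction 40.9% of all genes were called. "Rose" and "fell" are used of genes with a Benjamini-Hochberg adjusted p under 0.05 by edgeR's quasi-likelihood test, adjusted over all genes tested. The rise was at least 8-fold for 9 genes, against 3.37% of all genes tested: PS2, PEPC1, RNS1, PAP14, PAP17, PAP20, PAP21, PAP22 and PAP23. Groups did not overlap for 19 genes with higher values, against 28.9% of all genes, and for 2 with lower values, against 27.5%. Of the 28 genes, 5 had a wild-type mean below the filter's cut-off of about 0.2 CPM and passed through the libraries labelled vih1vih2. A higher fitted value was thus almost fixed for them: PAP14, PAP16, PAP20, PAP21 and PAP23. Of these, PAP16 was not called. Values after a gene in brackets are log2 fold changes ± SE. Among the other 23, 14 rose, 5 of them at least 8-fold, and 2 fell. Groups of these 23 did not overlap for 14 genes with higher values and 2 with lower values. The median log2 fold change was 1.37 over the 28 genes and 0.98 over the 23, beside 0.00 over all genes tested. With any 1 library left out, 17 to 19 genes rose and 1 fell (PAP29).

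**Figure D1:**
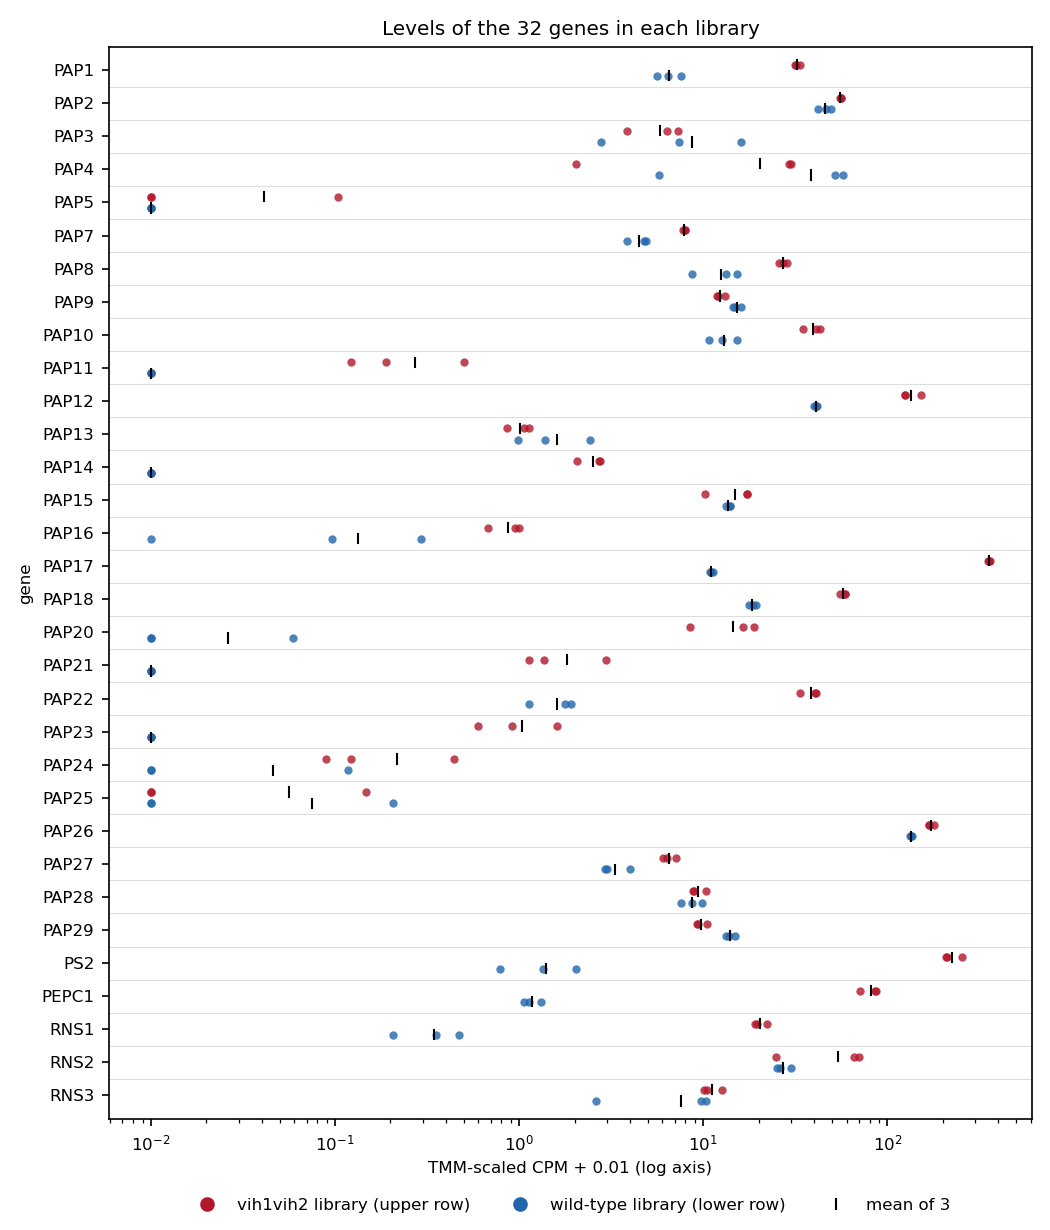
TMM-scaled CPM of each of the 32 genes in every library, on a log axis after adding 0.01. Red points in the upper row of each gene are libraries labelled vih1vih2, blue points in the lower row are wild type, and ticks are the means of 3. PAP17, PS2, PEPC1, PAP22 and RNS1 show groups far apart, while PAP4 has 1 low library in each group.

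The promoters of these genes often held GNATATNC, the motif that PHR1 binds, which reads the same on both strands. Within 250 bases before to 50 after the annotated start, 16 of the 34 genes had a match (47.1%) in the RefSeq annotation, beside 6.25% of the 27443 protein-coding nuclear genes with such a window. The G-box CACGTG was in 1 of 34 (2.94%, beside 7.68%) and the W-box core TTGAC in 16 of 34 (47.1%, beside 50.5%), each searched on both strands. With the bases after the start left out, 38.2% of members held GNATATNC, beside 5.46% of all promoters, and over 1000 bases before the start 61.8% did, beside 20.3%. Matches are letters in a window, not binding. The stretches below show, with the match in capitals, every gene that rose at least 8-fold and has a match before its start, except PAP21, and a member of smaller change, PAP8. The match of PAP21, at −432, lies inside the annotated PAP22 gene and is not shown. The coordinates are those of TAIR10.1, read on the minus strand, where all of these genes lie: PS2 chr1:27466532-27466591, PEPC1 chr1:6092356-6092415, PAP14 chr2:19266564-19266623 and chr2:19266527-19266586, PAP20 chr3:19564447-19564506, PAP23 chr4:7958982-7959041 and PAP8 chr2:399450-399509.
PS2: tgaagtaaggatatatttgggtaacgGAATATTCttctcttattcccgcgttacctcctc
PEPC1: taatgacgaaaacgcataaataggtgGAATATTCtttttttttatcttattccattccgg
PAP14, first match: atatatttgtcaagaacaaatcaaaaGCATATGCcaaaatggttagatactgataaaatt
PAP14, second match: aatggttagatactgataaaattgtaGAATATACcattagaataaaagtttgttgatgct
PAP20: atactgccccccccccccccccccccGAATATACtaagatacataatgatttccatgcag
PAP23: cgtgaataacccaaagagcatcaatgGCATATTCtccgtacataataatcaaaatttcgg
PAP8: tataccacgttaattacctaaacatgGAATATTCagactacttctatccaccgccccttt

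Among the members counted in every library, the PS2-type phosphatases had the largest changes. PS2 (AT1G73010, chromosome 1, 27464528 to 27466348, minus strand of TAIR10.1), a pyrophosphatase of the haloacid dehalogenase superfamily, had 208, 210 and 253 CPM in the libraries labelled vih1vih2, against 1.34, 0.775 and 2.03 CPM in wild type. Every library labelled vih1vih2 lay far above every wild-type one. PS2 was 162-fold higher, a log2 fold change of 7.34 ± 0.44 with an adjusted p of 0.000159 by edgeR. PEPC1 (AT1G17710, chromosome 1, 6090405 to 6092027, minus strand), a phosphatase of phosphocholine and phosphoethanolamine that is unrelated to PEP carboxylase, had 85.5, 71.1 and 86.7 CPM, against 1.12, 1.05 and 1.299 CPM in wild type. The groups were wide apart and the libraries of each lay close together. PEPC1 was 69.9-fold higher (6.13 ± 0.15, adjusted p = 9.34e-06 by edgeR). AT4G29530, a further phosphatase of the same superfamily, was at −0.14 ± 0.20 and was not called.

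RNS1 was the ribonuclease with a clear difference. RNS1 (AT2G02990), a secreted enzyme induced by Pi shortage and by wounding, had 19.2, 19.6 and 22.1 CPM in the libraries labelled vih1vih2, against 0.463, 0.344 and 0.196 CPM in wild type. The groups did not overlap, and wild type held only 28, 16 and 8 counts. Its log2 fold change was 5.89 ± 0.33 (adjusted p = 0.000126 by edgeR). RNS2 (AT2G39780), which takes part in the turnover of ribosomal RNA inside the cell, had 24.8, 65.7 and 70.1 CPM, against 26.1, 30.1 and 25.1 CPM in wild type. Library 1 labelled vih1vih2 lay just below the wild-type range and the others lay above it. RNS2 was not called, at 0.98 ± 0.40 (adjusted p = 0.106 by edgeR), but it was without library 1 labelled vih1vih2 (1.33, adjusted p = 0.00194). RNS3 (AT1G26820), known from senescing tissue, had 10.4, 12.7 and 10.12 CPM, against 2.61, 10.4 and 9.68 CPM, so the groups overlapped and it was not called.

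Among the purple acid phosphatases, 15 of the 23 tested rose and 2 fell, beside 21.4% higher and 19.4% lower of all genes tested. These PAPs include PAP14, PAP16, PAP20, PAP21 and PAP23, which passed the filter through the libraries labelled vih1vih2 alone. PAP17 (AT3G17790, chromosome 3, 6089381 to 6091231, plus strand), a small enzyme that also has peroxidase activity, had 351, 356 and 361 CPM in the libraries labelled vih1vih2, against 10.83, 11.02 and 11.32 CPM in wild type. Replicates lay within a few percent of each other in both groups. PAP17 was 32.2-fold higher, at 5.01 ± 0.05 with an adjusted p of 7.38e-07 by edgeR, the smallest among these genes. Its last 122 bases overlap AT3G17800 on the other strand, and that gene fell (−0.38 ± 0.08). The kit keeps the strand, but whether counting used it is unknown here, so reads of the pair could not be told apart with certainty.

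A trio on chromosome 3 that is low or absent in wild type rose. PAP20 (AT3G52780), PAP21 (AT3G52810) and PAP22 (AT3G52820) lie between positions 19561260 and 19577141 on the minus strand, and PAP21 and PAP22 are 183 bases apart. PAP22 had 33.6, 40.3 and 41.0 CPM in the libraries labelled vih1vih2, against 1.12, 1.76 and 1.91 CPM in wild type, 24.0-fold higher (4.58 ± 0.25). PAP20 had 1052, 428 and 874 counts, against 0, 0 and 2 counts in wild type. The ratio of its summed counts was 1089, with a 95% interval of 301 to 8994 that covers counting error only. PAP21 had 165, 57 and 72 counts and none in wild type, and its rise was at least 89.3-fold when the wild-type group is set to a floor of 3 counts in all. PAP20 and PAP21 passed the filter through the libraries labelled vih1vih2 alone, so a higher fitted value was almost fixed for both. In each, library 2 labelled vih1vih2 was the lowest of its group. Of the genes around them, AT3G52790 and AT3G52800, between PAP20 and PAP21, were at −1.297 ± 0.18 and 0.68 ± 0.05, and ZPR3, on the far side of PAP20, was at 2.06 ± 0.12. No stretch of 50 bases in spliced transcripts of these 3 genes is shared with another annotated gene. Around the 9 members that rose at least 8-fold lie 16 genes outside the family lists, of which 14 were tested, 3 rose and 6 fell, beside 21.4% higher and 19.4% lower of all genes tested. None (0) rose by 8-fold, beside 3.37% of all genes tested, though PYL3, 560 bases from PS2, came close at 7.75-fold (2.95 ± 0.46).

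PAP14 and PAP23 also rose with no wild-type count. Like PAP16, they passed the filter through the libraries labelled vih1vih2 alone, so a higher fitted value was almost fixed for all of them. PAP14 (AT2G46880) had 114, 138 and 146 counts in the libraries labelled vih1vih2 and none in wild type, which makes the rise at least 123-fold by the same floor. PAP23 (AT4G13700), an enzyme with phytase activity, had 50, 30 and 85 counts and none in wild type, at least a 50.6-fold rise. PAP16 (AT3G10150) had 37, 50 and 50 counts, against 17, 4 and 0 counts in wild type. Its groups did not overlap, yet it was not called (adjusted p = 0.0607 by edgeR), with a log2 fold change of 2.69. It was called without wild type 1 (4.18) and without wild type 3 (2.18).

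**Figure D2:**
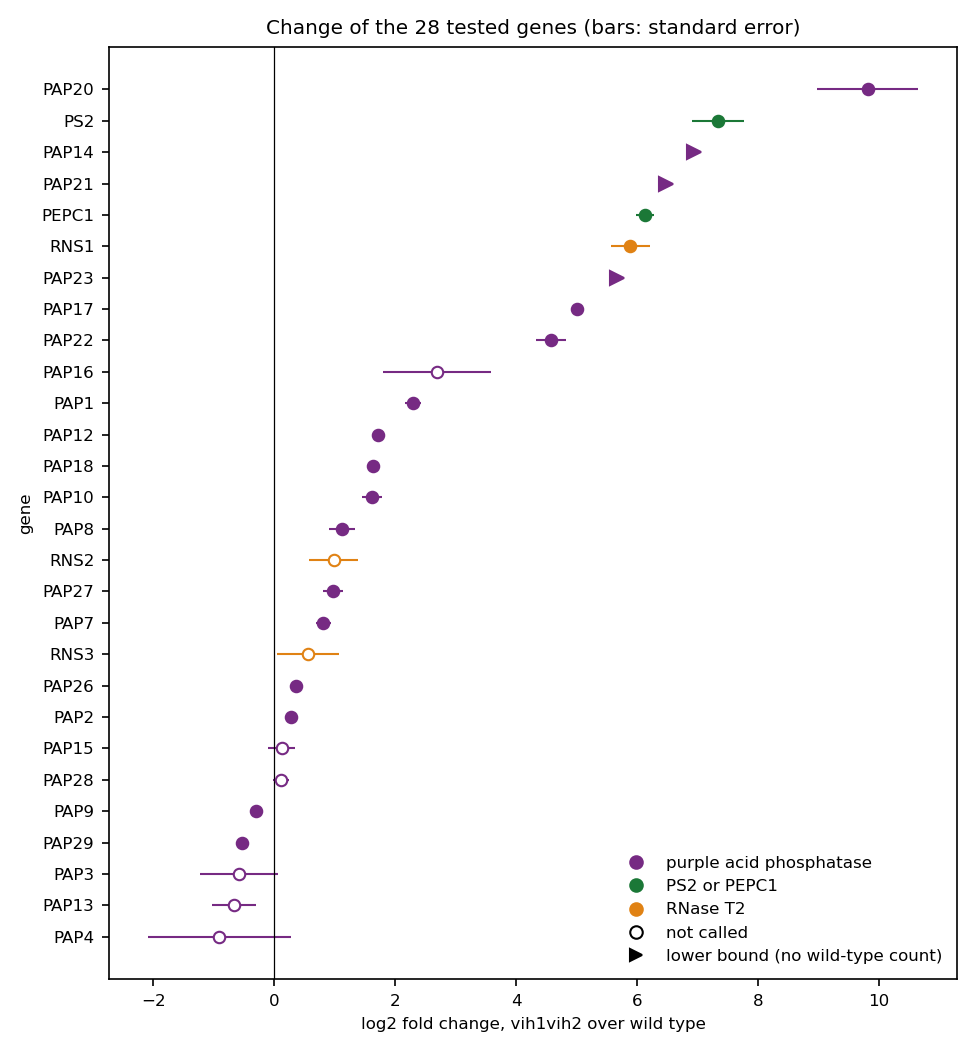
Log2 fold change, libraries labelled vih1vih2 over wild type, of the 28 tested genes. Circles are fitted values with standard errors as bars, filled where called, and triangles are lower bounds for PAP14, PAP21 and PAP23, which had no wild-type count. Values run from −0.91 for PAP4 to 9.81 for PAP20, a fitted value that rests on 2 wild-type counts.

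PAP12, PAP10 and PAP26, which act outside the cell or in the vacuole, also rose. PAP12 (AT2G27190), a main secreted PAP, had 124, 124 and 153 CPM in the libraries labelled vih1vih2, against 41.5, 40.8 and 40.1 CPM in wild type (1.71 ± 0.10). PAP10 (AT2G16430), which stays on the root surface, had 40.9, 34.9 and 42.9 CPM, against 10.7, 12.7 and 15.3 CPM in wild type (1.62 ± 0.16). The groups were apart for both genes, and PAP10 overlaps a non-coding gene on the other strand over 177 bases. PAP26 (AT5G34850), the main vacuolar PAP and also secreted, had 169, 179 and 168 CPM, against 134, 133 and 137 CPM in wild type. The groups did not overlap, but the difference was small, at 0.35 ± 0.05 (adjusted p = 0.00277 by edgeR). PAP25 (AT4G36350), a cell wall enzyme of Pi-starved plants, had 0, 7 and 0 counts and 0, 0 and 8 counts in wild type and was not tested.

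Of the remaining members, PAP1 (AT1G13750) had 31.4, 33.3 and 31.9 CPM in the libraries labelled vih1vih2, against 6.42, 5.62 and 7.57 CPM in wild type (2.30 ± 0.13). PAP18 (AT3G20500) had 58.8, 59.0 and 55.3 CPM, against 19.3, 18.6 and 17.6 CPM (1.64 ± 0.07). Both were well apart from wild type. PAP8 (AT2G01890) had 28.5, 27.0 and 25.7 CPM, against 8.72, 13.3 and 15.2 CPM (1.13 ± 0.22), and its neighbour PAP7 (AT2G01880) had 7.93, 7.76 and 7.97 CPM, against 4.78, 3.83 and 4.85 CPM (0.81 ± 0.12). PAP27 (AT5G50400) had 7.12, 6.36 and 6.03 CPM, against 3.99, 2.91 and 2.99 CPM (0.98 ± 0.16). In these 3 genes every library labelled vih1vih2 lay above every wild-type one.

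PAP2 and PAP9, close relatives of which PAP2 sits on the outer membranes of chloroplasts and mitochondria, moved apart by small amounts. PAP2 (AT1G13900) had 56.1, 55.7 and 55.0 CPM in the libraries labelled vih1vih2, against 49.1, 46.1 and 41.9 CPM in wild type (0.28 ± 0.08, adjusted p = 0.0314 by edgeR). PAP9 (AT2G03450) had 12.0, 13.2 and 11.9 CPM, against 14.5, 14.9 and 16.0 CPM (−0.30 ± 0.09, adjusted p = 0.0456 by edgeR). Groups did not overlap for either gene. The call of PAP9 was lost without any 1 of the 6 libraries, at −0.34 to −0.26, and that of PAP2 without any 1 but wild type 1, at 0.22 to 0.29. PAP29 (AT5G63140) fell too, with 9.26, 9.38 and 10.4 CPM, against 13.2, 14.8 and 13.8 CPM in wild type (−0.52 ± 0.09, adjusted p = 0.00835 by edgeR), and kept its call without each library.

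Of the tested PAPs, 6 were not called, PAP16 and those described here. PAP4 (AT1G25230) had 30.1, 2.03 and 29.2 CPM in the libraries labelled vih1vih2, against 51.9, 57.3 and 5.71 CPM in wild type. Library 2 labelled vih1vih2 and wild type 3 each lay about an order of magnitude below the others of their group. PAP15 (AT3G07130), a phytase, had 10.2, 17.2 and 17.2 CPM, against 13.2, 13.9 and 13.9 CPM (0.12 ± 0.22), and was called without library 1 labelled vih1vih2 (0.33, adjusted p = 0.0422 by edgeR). The groups overlapped. PAP28 (AT5G57140) was at 0.11 ± 0.13, PAP3 (AT1G14700) at −0.58 ± 0.64 and PAP13 (AT2G32770) at −0.66 ± 0.37. PAP3 also spread within groups, with 3.85, 7.27 and 6.37 CPM, against 7.39, 2.78 and 15.9 CPM in wild type. Of the 22 members with a mean of at least 5 CPM, 3 had a range of at least 5-fold within a group (13.6%). The share was 7.45% of the 16599 genes tested at that level. These members were PAP3, PAP4 and PAP20, the last through wild-type counts of 0, 0 and 2.

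The filter on low counts removed 4 members with a row, PAP5 (AT1G52940), PAP11 (AT2G18130), PAP24 (AT4G24890) and PAP25. PAP11 had 10, 25 and 6 counts in the libraries labelled vih1vih2 and none in wild type, PAP5 had 0, 0 and 5 counts and none in wild type, and PAP24 had 24, 4 and 6 counts, against 0, 5 and 0 counts in wild type. With no filter PAP11 was called higher (adjusted p = 0.0367 by edgeR), and the other 3 were not called (adjusted p of 0.275 to 0.903 by edgeR). PAP5, PAP11 and PAP19 share stretches of 50 bases, 5.01% of those in PAP5 and 5.32% in PAP11, so counts could be split between them. PAP24 overlaps AT4G24880 on the other strand over 392 bases.

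By published class of the protein family, 5 of the 6 genes of class Ib rose, 4 of them at least 8-fold (PAP20, PAP21, PAP22 and PAP23), and PAP15 was not called. Of these, PAP20, PAP21 and PAP23 passed the filter through the libraries labelled vih1vih2 alone, and among the other 3 genes 2 rose, PAP22 at least 8-fold. In class Ia 3 of the 4 tested rose (PAP10, PAP12 and PAP26), none by 8-fold. In class IIIa 3 of 5 rose, PAP17 at least 8-fold, and in class IIIb 1 rose (PAP14, which also passed through the libraries labelled vih1vih2 alone) and 1 fell (PAP29) of 4. In class II 3 rose and 1 fell of the 4 tested. Of all genes tested, 21.4% rose, 3.37% rose at least 8-fold and 19.4% fell. The classes are small, and differences between them were not tested.

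The 32 genes together took more of each library labelled vih1vih2. Their summed level was 1357, 1377 and 1500 CPM in the libraries labelled vih1vih2, against 433, 446 and 410 CPM in wild type, so the ratio of means was 3.28. The groups were wide apart. PAP17 made up 35.1% of the difference between the group means, PS2 22.7%, PAP12 9.47% and PEPC1 8.14%. In the libraries labelled vih1vih2 PAP17 held 25.3 ± 1.03% of the sum and PAP26 12.2 ± 0.921%, while in wild type PAP17 held 2.58 ± 0.159% and PAP26 31.4 ± 1.79% (SD, n = 3 each).

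**Figure D3:**
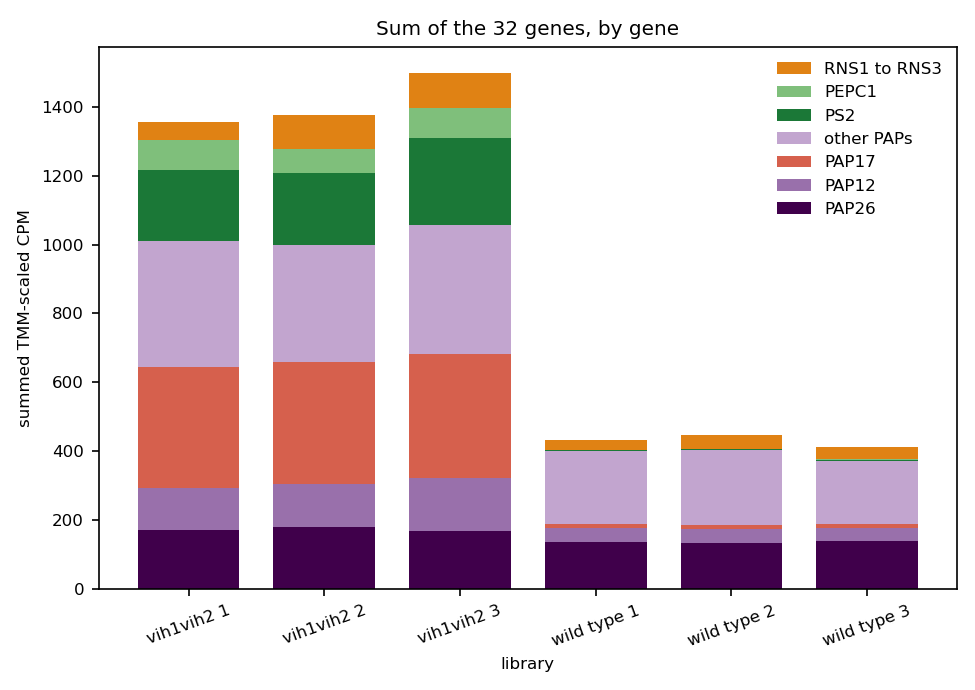
Summed TMM-scaled CPM of the 32 genes in each library, with the libraries labelled vih1vih2 on the left and wild type on the right, stacked by gene. PAP17, PS2 and PEPC1 together take more of each library labelled vih1vih2 than all 32 genes take of a wild-type one, while PAP26 averages 172 CPM, against 135 CPM in wild type.

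Levels of different genes can be compared only per length of annotated exon. In the libraries labelled vih1vih2 the order was PAP17 at 215 ± 3.05 CPM per kb, PS2 at 171 ± 19.6, PAP12 at 75.6 ± 9.21, PAP26 at 66.7 ± 2.37 and PEPC1 at 59.0 ± 6.30 CPM per kb (SD, n = 3). Neighbours in this order did not overlap across libraries, but PAP12 and PAP26 differed by less than the SD of PAP12. In wild type PAP26 led at 52.2 ± 0.724 CPM per kb, followed by PAP4 at 25.4 ± 18.8, PAP12 at 23.1 ± 0.385 and RNS2 at 23.0 ± 2.24 CPM per kb, of which the last 3 overlapped. PAP17 stood at place 12 there, at 6.67 ± 0.149 CPM per kb, PS2 at place 19 and PEPC1 at place 21.

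Counted from the annotated start, the matches shown above begin at −217 in PS2, −141 and −104 in PAP14, −130 in PAP20, −96 in PAP23 and −145 in PAP8. PEPC1 had none within 250 bases but had matches at −362 and −757. RNS1 and PAP12 had theirs 20 and 32 bases after it. PAP17 and PAP22, which rose 32.2-fold and 24.0-fold, had no match from 1000 bases before the start to 50 after it. Of the 10 tested members with a match in the shorter window 8 rose, and of the 18 without one 10 rose. Without the 5 members that passed the filter through the libraries labelled vih1vih2 alone, these counts were 5 of 6 with a match and 9 of 17 without one. Over all genes tested with a window, 26.5% of those with a match and 20.9% of those without one rose. All 6 members that had no row or were too low to test held a match, and near the start of PAP5, PAP11 and PAP19 the letters around it are alike. Those stretches are chr1:19716183-19716242 (plus strand), chr2:7884003-7884062 and chr3:16939834-16939893 (minus strand), again with the match in capitals.
PAP5: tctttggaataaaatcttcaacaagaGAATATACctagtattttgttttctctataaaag
PAP11: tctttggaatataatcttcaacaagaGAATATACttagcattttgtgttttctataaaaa
PAP19: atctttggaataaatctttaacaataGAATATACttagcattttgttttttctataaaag

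**Figure D4:**
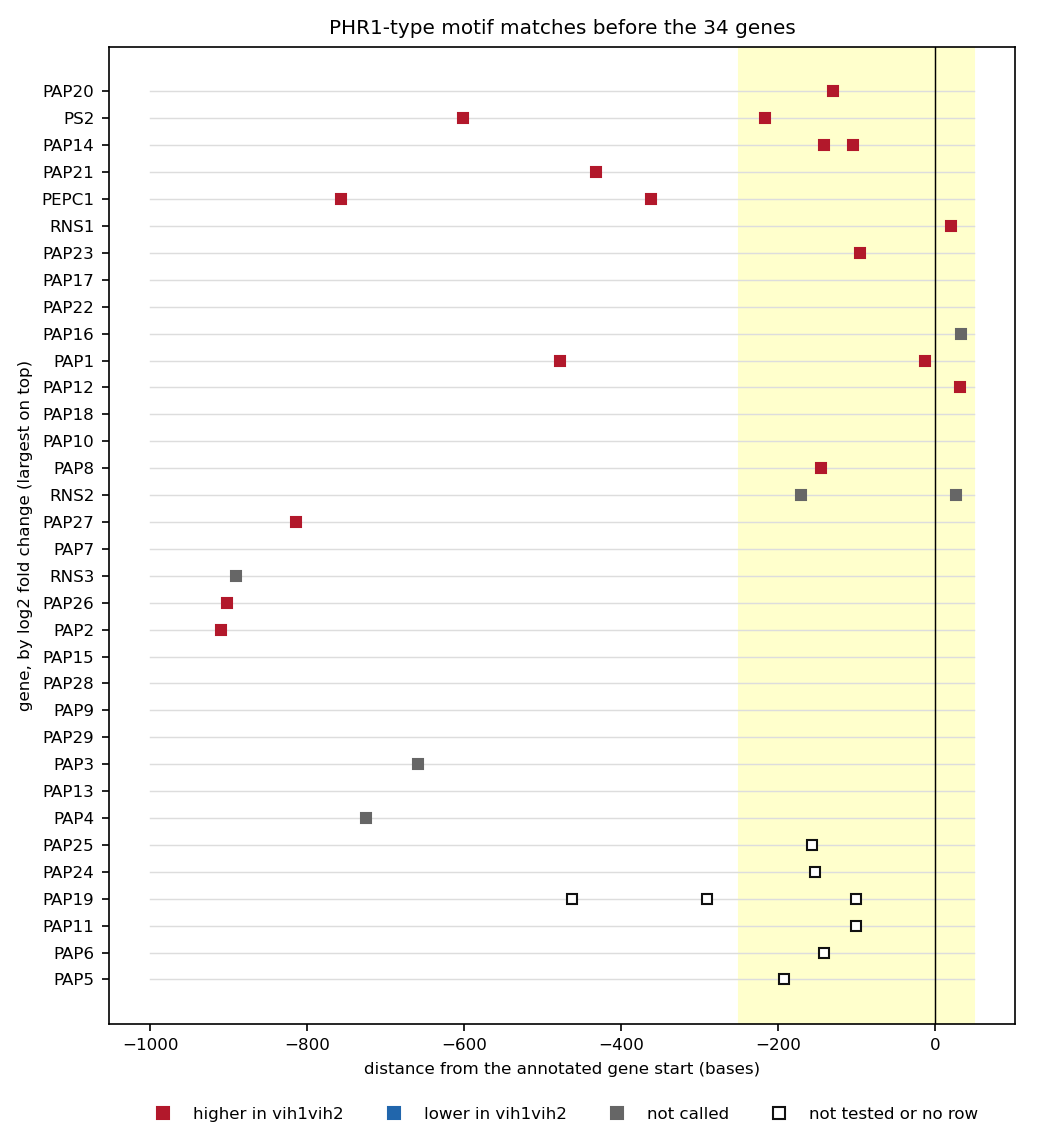
Places of GNATATNC from 1000 bases before to 50 after the annotated start of each of the 34 genes, ordered by log2 fold change with the largest on top and untested genes at the bottom. The band marks 250 before to 50 after the start. No match was found for PAP17, PAP22, PAP10, PAP18 and PAP7, which rose, for PAP9 and PAP29, which fell, or for PAP13, PAP15 and PAP28, which were not called.

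Genes with related tasks moved in both directions, as did all genes tested, of which 21.4% rose and 19.4% fell. Of 7 other T2 ribonucleases and S1/P1 nucleases 4 rose and 3 fell. BFN1, a nuclease of senescing tissue, was at 22.4 ± 2.997 CPM in the libraries labelled vih1vih2 and 3.07 ± 0.695 CPM in wild type (2.87 ± 0.21), and ENDO4 was at 1.26 ± 0.21. The other T2 ribonucleases, AT1G14210 and AT1G14220, fell to 25.4 ± 3.18 and 1.21 ± 0.183 CPM, against 35.4 ± 4.48 and 2.95 ± 0.401 CPM in wild type. ENDO5 fell as well (−2.42 ± 0.32). Without vih1vih2 1, 2 or 3 or wild type 2 or 3, 2 of the 7 rose. Of 17 tested genes of nucleotide and nucleoside salvage 5 rose and 2 fell (median log2 fold change −0.05). The apyrase-family gene AT1G14250 had the largest rise (3.15 ± 0.15) while its neighbour AT1G14240 fell (−1.06 ± 0.12). The nucleoside transporter gene ENT1 was not called (−0.08 ± 0.97). Here 3 rose without vih1vih2 2 or 3 or wild type 1 or 2, 4 fell without vih1vih2 1, and 1 fell without vih1vih2 2 or wild type 1 or 3.

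Of 10 other acid phosphatases of the haloacid dehalogenase type 2 rose and 1 fell. For this list and those below, the shares over all genes tested were 21.4% higher and 19.4% lower. VSP2 and VSP1, vegetative storage proteins with acid phosphatase activity that jasmonate induces, rose by 3.73 ± 0.11 and 3.32 ± 0.05, and AT1G04040 fell (−0.59 ± 0.06). AT5G44020 was at −0.60 ± 0.24 and not called, and AT4G29260 and AT4G29270 had the same counts in all 6 libraries, at −2.18 ± 0.80, and were not called. The median of the list was −0.45, and −0.30 with this pair counted once. Without vih1vih2 1 AT5G44020 fell too, which makes 2, and without vih1vih2 3 the equal pair did, which makes 3. Of 13 genes of Pi signalling 8 rose and 1 fell, with a median of 1.25. The gene that fell was SPX4 (−0.80 ± 0.12). SPX1, which binds PHR1, was at 521 ± 7.601 CPM in the libraries labelled vih1vih2 and 10.8 ± 5.54 CPM in wild type (5.59 ± 0.43). PHR1 itself was not called (46.2 ± 3.59 CPM in the libraries labelled vih1vih2 and 48.2 ± 2.20 CPM in wild type). Of 4 tested senescence markers, of interest because RNS3 and BFN1 are known from that stage, 2 rose, SAG13 (7.98 ± 0.26) and ORE1 (2.95 ± 0.06), and NAP was not called (−0.19 ± 0.38). All 5 wound and jasmonate genes rose, VSP2 among them, beside RNS1, which wounding also induces. This list, like the others, was chosen with earlier results of these data known. LOX2, an enzyme of jasmonate synthesis, was at 4.58 ± 0.50 and JAZ10, a repressor of jasmonate responses, at 4.82 ± 0.22. Their part in the result for RNS1 was not tested.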

How the data were processed

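Per the labels' protocols, RNA from whole seedlings was made into libraries with a directional kit. The authors deposited raw counts per gene identifier. The submitters' processing notes name TAIR10 as the build and list StringTie 1.3.3b, STAR 2.5.3a and CASAVA 1.4. The counting tool, its strand setting and the annotation were not given in the sources used here. Of 27080 rows, 280 had identifiers of 6 digits, repeated the counts of the row of their first 5 digits and were left out.

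Mutant-labelled libraries (3) were set against wild-type libraries (3) in R 4.3.3 with edgeR 4.0.16: filterByExpr with default settings, TMM scaling, and the quasi-likelihood test with group as the only term, on the whole table, with Benjamini-Hochberg adjustment over 22818 genes. Each SE was taken as |log2 fold change| over the root of the F statistic. For genes with no wild-type count the fold is a bound against 3 counts over the group, which covers counting error only. Lengths, coordinates and promoters came from RefSeq's annotation of TAIR10.1. The counts carry no coordinates.

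Alternatives were DESeq2 1.42.0 (size factors and Wald test), limma-voom (limma 3.58.1), other filters, a threshold of 0.01, the replicate number as a block, 6-digit rows kept, organelle genes removed, and each library left out. The 1000-base promoter window was added after seeing the data. Members, gene lists and classes were chosen with earlier results of these data known. Every member could be named. From each other list the text names among the called genes of largest change with at least 1 CPM and the best-expressed uncalled ones. AT4G29530, AT4G29270, AT1G14210 and SPX4 fall outside this, chosen with their values in view. Genes flanking members that rose at least 8-fold could also be named. Replicates differed by far more than sampling noise (chi-square per degree of freedom 117 to 143).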

Additional observations from a re-analysis of the deposited data

How the results depend on the processing

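The replicate numbers showed no sign of pairing the samples. Deviations from the group means correlated at 0.0543, −0.0245 and −0.0311 between libraries of the same number, and at −0.0489 to 0.0756 between the others. This cannot show that libraries of the same number were handled apart, and no label says so. The block is given here alone. With the replicate block 15 members rose and 1 fell, PAP2, PAP9, PAP21 and PAP23 losing their calls, and 3 of the other acid phosphatases of the haloacid dehalogenase type fell and 2 of the other nucleases rose. With 1 library left out, 17 to 19 members rose and 1 fell in every case. Of the 18 members that rose 17 were called in all 6 of these fits, PAP2 being the exception, and of the 2 that fell PAP29 was. Of all genes tested, 4130 to 4377 genes then rose and 3684 to 3775 fell. In these fits 2 to 3 other nucleases rose, 3 to 5 salvage genes rose and 1 to 4 fell, and 1 to 3 of the other acid phosphatases fell. A threshold of 0.01 left 3136 genes higher and 2623 lower, 16 members higher and 1 lower, PAP2, PAP8 and PAP9 losing their calls. It also left 2 nucleases higher, and 2 salvage genes higher and 1 lower. By the DESeq2 Wald test 20 members rose, PAP16 and RNS2 with them, 4 salvage genes fell and 3 acid phosphatases fell. That test called 5800 genes higher and 5329 lower over the whole table. Where 3 acid phosphatases fell, they include the pair of equal counts. By limma-voom 19 members rose, and with no filter 19 rose, PAP11 with them, and 1 fell. Among all genes 5001 rose and 4549 fell by limma-voom, and 4793 rose and 4248 fell with no filter. At 5 CPM in 3 libraries 15 rose, since PAP14, PAP21 and PAP23 were no longer tested, as did 2 nucleases, and 1 salvage gene fell. This filter left 3812 genes higher and 3626 lower over the whole table. No call of a member reversed under the alternatives run. The log2 ratio of the summed CPM was 1.72, 1.67 to 1.74 without 1 library, and 1.87 with no scaling beyond the total count. VIH1 stayed at 2.20 to 2.47 and VIH2 at 3.54 to 3.72 without 1 library. At 1 count per 0.0165 to 0.0245 CPM, PAP5, PAP24 and PAP25 had too few counts for a firm value.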
